A study of Mus musculus with 4 samples.

Results

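Cyp4a10, Cyp4a14, Acot1, Pdk4, Angptl4, Plin2 and Fgf21 are textbook target genes of peroxisome proliferator-activated receptor alpha (PPAR-alpha), and their messenger RNA was followed here by kidney tubule segment in 4 single-cell libraries. The 7 genes were matched by symbol among the 31053 genes of the deposited matrices, and each matched 1 row. They were selected on measured values of these libraries as well as on textbook roles: Cyp4a14 and Cyp4a10 were already known to be higher in proximal tubule of the library from mice given a probiotic than in the other day 5 library, so that contrast is given below as a description. Kidneys of male C57BL/6 mice were dissociated after ischaemia-reperfusion (I/R) injury, in which blood flow to the kidney is interrupted and restored. The groups were IR Lac.z day 5 (Lactobacillus casei Zhang by daily oral gavage at 1e9 CFU for 4 weeks before the injury, kidney taken 5 days after it), IR day 5, IR day 14 and IR day 28 (the same injury without the probiotic, taken 5, 14 and 28 days after it), with 1 library each. The labels do not state how many mice a library holds, no uninjured kidney was analysed here, and without replicate libraries no difference between groups could be tested.

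PPAR-alpha is a nuclear receptor that binds fatty acids, pairs with a retinoid X receptor and switches on genes of fatty acid transport and oxidation. In the kidney the receptor is found mainly in the proximal tubule, a segment that lives largely on fatty acids and that I/R injury strikes hardest. The proximal tubule is divided along its length into S1, S2 and S3, which differ in their transporters. The 7 genes cover several roles of the programme. Cyp4a10 and Cyp4a14 encode cytochromes P450 that hydroxylate the end of the fatty acid chain, and Acot1 encodes a thioesterase that frees fatty acids from coenzyme A. Pdk4 encodes a kinase that shuts down pyruvate dehydrogenase and so spares glucose carbon. Plin2 encodes a coat protein of lipid droplets. Angptl4 and Fgf21 encode secreted proteins, an inhibitor of lipoprotein lipase and a fasting hormone of the liver.

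Whether unique molecular identifiers (UMIs) can be assigned to one gene depends on how far its transcripts differ from those of near copies. Several cytochrome genes of this kind lie close together on mouse chromosome 4, among them Cyp4a14 at chr4:115486200-115496158, Cyp4a10 at chr4:115518287-115533649 and Cyp4a31 at chr4:115563627-115579015 (GRCm38). The last 60 coding bases before the stop codon are shown to let the copies be compared, taken from GENCODE M21 transcripts. Capitals in Cyp4a10 and Cyp4a14 mark the bases at which these 2 differ, and capitals in Cyp4a31 mark where it differs from Cyp4a10.
Cyp4a10, exon 12 of 13, chr4:115532637-115532696, plus strand: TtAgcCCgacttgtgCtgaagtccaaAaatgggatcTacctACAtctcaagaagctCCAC
Cyp4a14, exon 12 of 12, chr4:115487146-115487205, minus strand: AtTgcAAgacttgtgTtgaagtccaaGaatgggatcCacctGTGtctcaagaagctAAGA
Cyp4a31, exon 12 of 12, chr4:115578042-115578101, plus strand: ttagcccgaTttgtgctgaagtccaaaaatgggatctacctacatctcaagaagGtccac
Cyp4a14 differed from Cyp4a10 at 14 of these 60 bases, and Cyp4a31 differed from Cyp4a10 at 2. Across whole transcripts, none of the 2406 stretches of 91 bases in Cyp4a14 was found in Cyp4a10 or in the other copies compared, whereas 294 of 2106 in Cyp4a10 occurred in Cyp4a31 or Cyp4a32. Of the 2218 stretches of Acot1, on chromosome 12, 386 were shared with Acot2 and 499 with any of the thioesterase copies compared. Values of Cyp4a10 and Acot1 are therefore uncertain by what the authors' counting did with such reads, which the sources used here do not give. Whether the shared stretches lie in the part of the transcript that was read was not examined. Pdk4, Angptl4, Plin2 and Fgf21 shared no stretch with the genes compared.

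Promoters from RefSeq (GRCm38.p6) were at hand for Plin2 (chr4:86626910-86670217), Pdk4 (chr6:5483351-5496278), Acot1 (chr12:84009502-84017670) and Fgf21 (chr7:45613890-45615490). The 250 bases before the start used in that table were searched on both strands for the half-site AGGTCA and for the repeat AGGTCANAGGTCA, the type of element that PPAR-alpha and its partner bind. Among these 4 genes, Plin2 had the half-site, and its repeat match, in capitals, lies on the reverse strand with 2 mismatches and starts 225 bases before the table's start, which itself lies inside the Plin2 span given above, so that the window overlaps that span.
Plin2, chr4:86670060-86670309, minus strand: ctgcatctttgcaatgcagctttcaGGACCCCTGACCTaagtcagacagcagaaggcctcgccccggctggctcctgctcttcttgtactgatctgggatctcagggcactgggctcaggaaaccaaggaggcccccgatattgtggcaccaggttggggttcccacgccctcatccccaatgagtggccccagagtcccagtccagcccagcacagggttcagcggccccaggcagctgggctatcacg
Of all 32851 promoters in the table, 14.0% held the half-site and 3.24% held a repeat with at most 2 mismatches, so the letters describe this window and do not show a binding site. For Pdk4, Acot1 and Fgf21 the closest repeat had 4 mismatches.

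After filtering, 6583 cells were kept in the IR Lac.z day 5 library and 6608, 8714 and 12376 in IR day 5, 14 and 28, from deposited totals between 76678882 and 104454319 UMIs. Between 15 and 43 cell barcodes were shared by any pair of libraries, at most 0.510% of the smaller library. Proximal tubule cells were gated on raw UMIs of 7 marker genes and assigned to S1, S2 or S3 by segment markers; cells with at least 2 UMIs of Havcr1, the kidney injury molecule gene, were kept apart as injured tubule. All proximal tubule cells, without the injured ones, numbered 3896 in IR Lac.z day 5 and 1387, 5673 and 9523 in IR day 5, 14 and 28. S3 rested on 87 cells in IR Lac.z day 5 and 29 cells in IR day 5, so values of S3 at day 5 are weak. Macrophage markers summed to 35.6 CPM (UMIs of a gene scaled to a fixed total over the summed cells) in the proximal tubule cells of IR Lac.z day 5, against 75.3 CPM in those of IR day 5, and these cells made up 59.2% and 21.0% of the kept cells of the 2 libraries; the part of either in the results below was not tested. The headers name software 3.0.2 in IR Lac.z day 5 and IR day 5 but 3.1.0 in IR day 14 and IR day 28, so version and time cannot be told apart, and every comparison with IR day 5 shares that 1 library.

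The omega-hydroxylase genes were proximal tubule genes with a marked segment order. In S2, Cyp4a14 stood at 478 CPM in IR Lac.z day 5, and at 98.2, 373 and 229 CPM in IR day 5, 14 and 28. In S1 the same gene had 67.7 CPM in IR Lac.z day 5, and 12, 41.6 and 18.9 CPM in IR day 5, 14 and 28. Each library thus had a higher Cyp4a14 level in S2 than in S1, with 95% Poisson intervals that did not overlap, and within each segment IR Lac.z day 5 was highest and IR day 5 lowest. S3 lay between them at 252 CPM in IR Lac.z day 5, and 71.2, 92.0 and 128 CPM in IR day 5, 14 and 28, with the S3 and S2 intervals of IR day 5 overlapping (43.5 to 110 and 87.7 to 110 CPM).

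Cyp4a10 had its lowest proximal tubule level in S1 too, but S3 matched or exceeded S2. Its S1 levels were 77.0 CPM in IR Lac.z day 5, and 35.8, 103 and 51.1 CPM in IR day 5, 14 and 28. S2 held 387 CPM in IR Lac.z day 5, and 171, 463 and 322 CPM in IR day 5, 14 and 28. For S3 the levels were 391 CPM in IR Lac.z day 5, and 199, 455 and 605 CPM in IR day 5, 14 and 28. Only IR day 28 had an S3 level above its S2 level beyond the counting intervals (575 to 635 and 315 to 329 CPM). In thick ascending limb and distal convoluted tubule cells, neither cytochrome gene exceeded 7.35 CPM in any library. Principal cells of the collecting duct, 25 to 72 a library, reached 14.6 CPM of Cyp4a10 in IR day 28 (12 UMIs), and 11.9 CPM of Cyp4a14 in IR Lac.z day 5 (5 UMIs) and 11.2 CPM in IR day 14 (13 UMIs). Macrophages, which are not known to make them, held 3.21 CPM of Cyp4a14 in IR Lac.z day 5 and 0.109, 3.39 and 2.25 CPM in IR day 5, 14 and 28; the part of free RNA in these values was not tested.

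Acot1 was lowest in S1, like Cyp4a10, but its S3 level was above S2 beyond the counting intervals in more libraries. It had 77.4 CPM in S1 of IR Lac.z day 5, and 66.4, 103 and 59.2 CPM in S1 of IR day 5, 14 and 28. In S2 these were 218 CPM in IR Lac.z day 5, and 139, 256 and 182 CPM in IR day 5, 14 and 28. The S3 level was 225 CPM in IR Lac.z day 5, and 210, 356 and 294 CPM in IR day 5, 14 and 28, so S1 was lowest in all 4 libraries. S3 was above S2 beyond the counting intervals in IR day 5, 14 and 28, and the S3 and S2 intervals overlapped in IR Lac.z day 5. The S3 value of IR day 5 is weak, with 59 UMIs in 29 cells.

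Pdk4 was present in the proximal tubule and in the distal nephron. Its S2 level was 202 CPM in IR Lac.z day 5, and 70.1, 329 and 120 CPM in IR day 5, 14 and 28. S1 was lower, with 57.3 CPM in IR Lac.z day 5, and 21.6, 93.0 and 26.2 CPM in IR day 5, 14 and 28. S3 had 114 CPM in IR Lac.z day 5, and 92.5 (26 UMIs), 279 and 105 CPM in IR day 5, 14 and 28. Distal convoluted tubule cells had 42.7 CPM in IR Lac.z day 5 (47 cells), and 16.7 (17 cells), 126 (120 cells) and 72.8 CPM (316 cells) in IR day 5, 14 and 28. IR day 14 was highest in every 1 of these classes, and the distal values of the day 5 libraries rest on 20 UMIs in IR Lac.z day 5 and 3 UMIs in IR day 5. Thick ascending limb cells held 12.5 CPM in IR Lac.z day 5 (12 UMIs), and 8.01 (6 UMIs), 88.0 and 62.3 CPM in IR day 5, 14 and 28. Injured tubule cells had 139 CPM in IR Lac.z day 5 (158 cells), 87.6 CPM in IR day 5 (60 cells) and 300 CPM in IR day 14 (169 cells). The tenth of S2 cells with the most Pdk4 UMIs held 56.8% of them in IR Lac.z day 5. This share was 89.3%, 70.7% and 81.0% in IR day 5, 14 and 28. Such a share also rises where cells hold few UMIs. S2 had 2193 Pdk4 UMIs in 1164 cells of IR Lac.z day 5 and 225 in 370 cells of IR day 5. The part of this in the shares was not tested, and other genes were not set beside Pdk4.

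Angptl4 was spread over S1 and S2. S2 levels were 329 CPM in IR Lac.z day 5, and 101, 385 and 328 CPM in IR day 5, 14 and 28. S1 levels were 161 CPM in IR Lac.z day 5, and 64.0, 305 and 218 CPM in IR day 5, 14 and 28. S3 had 101 CPM in IR Lac.z day 5, and 89.0, 236 and 183 CPM in IR day 5, 14 and 28. The S1 level was between the S2 and S3 levels in IR Lac.z day 5, 14 and 28, and IR day 5 had overlapping intervals for S1 and S3. Fibroblast or mural cells, from 19 to 61 cells a library, also carried Angptl4, at 41.8 CPM in IR Lac.z day 5 and 51.7, 67.6 and 58.3 CPM in IR day 5, 14 and 28.

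Plin2 differed from the other genes in time and place. In S1 it had 213 CPM in IR Lac.z day 5, and 173, 109 and 94.2 CPM in IR day 5, 14 and 28. S2 showed the same order over time, with 247 CPM in IR Lac.z day 5, and 185, 137 and 133 CPM in IR day 5, 14 and 28. Both day 5 libraries thus exceeded both later ones, where the cytochrome genes, Pdk4 and Angptl4 were lowest in IR day 5. Injured tubule cells had more, at 414 CPM in IR Lac.z day 5, and 342, 221 and 284 CPM in IR day 5, 14 and 28 (158, 60, 169 and 15 cells). Plin2 was also a gene of macrophages, with 259 CPM in IR Lac.z day 5, and 213, 219 and 174 CPM in IR day 5, 14 and 28. At day 5 the summed macrophage markers inside the S1 and S2 gates were between 30.7 and 72.8 CPM, against 17194 and 15240 CPM in macrophages of IR Lac.z day 5 and IR day 5.

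Fgf21 was hardly detected. All proximal tubule cells of IR Lac.z day 5 held 2 UMIs, and those of IR day 5, 14 and 28 held 0, 1 and 8. The count of 0 in IR day 5 allows a level of up to 0.260 CPM at 3 counts. Of the 8 UMIs at day 28, 6 were in S2 cells, and 3 of those came from 1 cell, so no comparison was made for this gene.

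**Figure D1:**
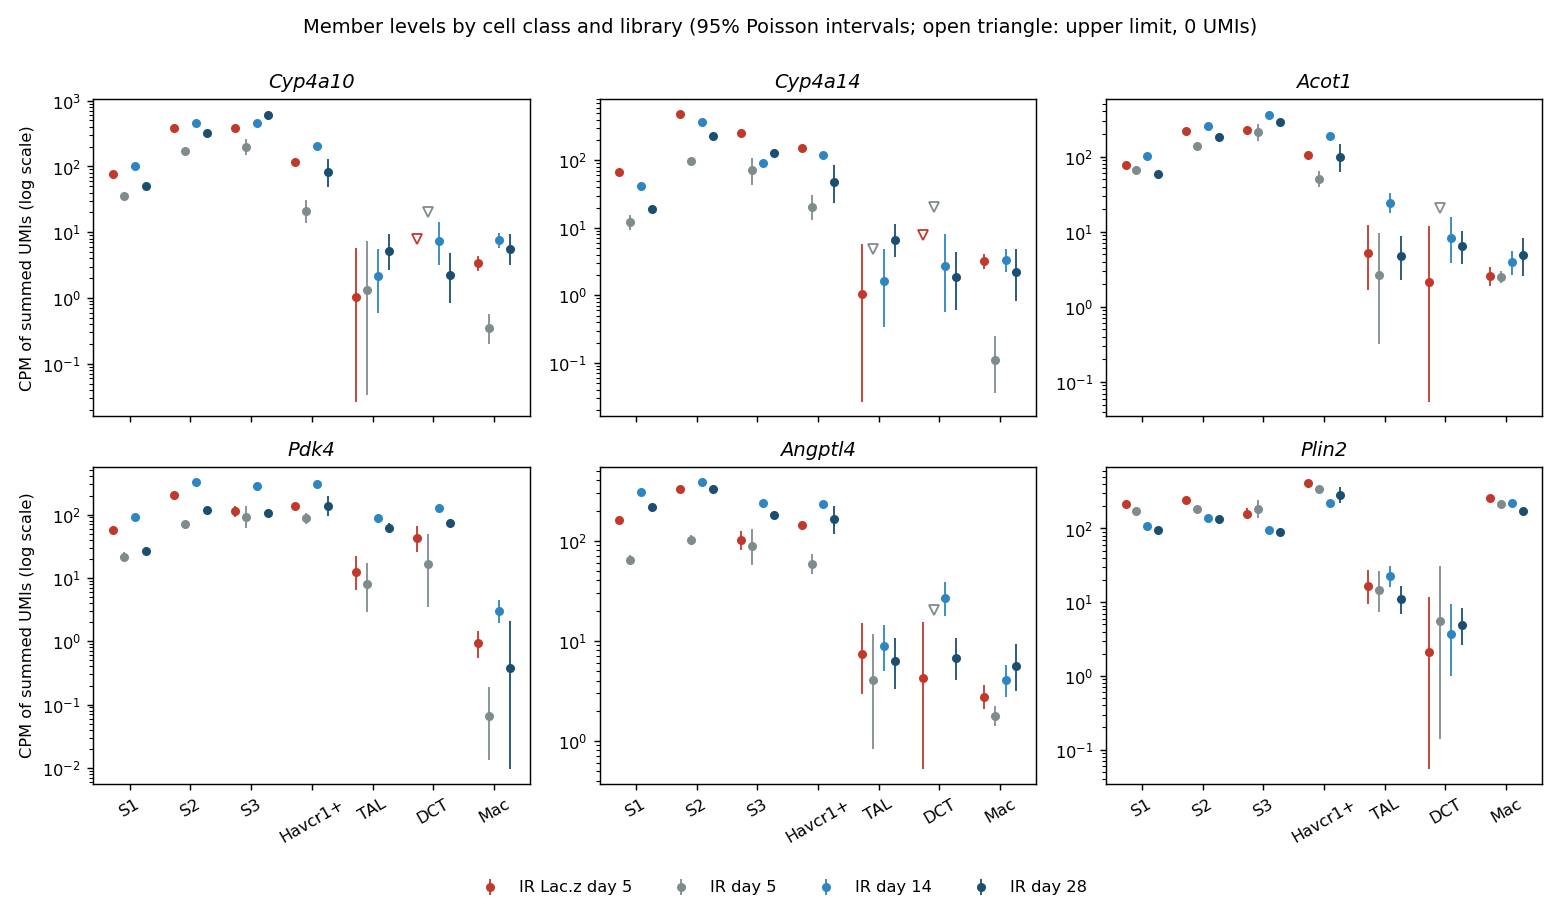
Level of 6 genes in CPM of summed UMIs (log axis) in S1, S2 and S3 proximal tubule, Havcr1+ injured tubule, thick ascending limb (TAL), distal convoluted tubule (DCT) and macrophages (Mac), with 1 point per library, 95% Poisson intervals that cover counting error only, and open triangles for the upper limit where a class held 0 UMIs. Cyp4a14 reaches 478 CPM in S2 of IR Lac.z day 5 and at most 6.71 CPM in TAL and DCT; Pdk4 reaches 126 CPM in DCT of IR day 14, and Plin2 has 259 CPM in macrophages of IR Lac.z day 5.

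In the IR Lac.z day 5 library, 4 of the 6 measured genes were at least 1.5-fold higher in all proximal tubule cells than in IR day 5, and none was lower. Genes whose UMIs in the compared pair summed to 50 or more counted as measured; of 11480 such genes, 6.31% were at least 1.5-fold higher and 2.82% lower. Cyp4a14 was 4.99-fold higher (95% counting interval 4.58 to 5.45; 237 and 47.6 CPM in IR Lac.z day 5 and IR day 5), and only 0.331% of the measured genes had a larger ratio. Angptl4 was 2.69-fold (2.51 to 2.88; 220 and 81.7 CPM), Pdk4 2.48-fold (2.27 to 2.72; 119 and 47.9 CPM) and Cyp4a10 2.15-fold higher (2.02 to 2.29; 215 and 99.9 CPM). Acot1 reached a ratio of 1.44 (1.35 to 1.53; 153 and 107 CPM) and Plin2 a ratio of 1.23 (1.17 to 1.29; 221 and 180 CPM), short of the 1.5-fold mark, which Acot1 passed with no mitochondrial limit (1.52). The median log2 ratio of the 6 genes was 1.21, against 0.06 over all measured genes. All 6 were chosen with earlier results of these data known, 2 of them on this contrast. The counts here, by segment and in injured cells are therefore a description.

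The segments were also compared separately, without a test of the differences between them. In S1, 4 of 6 genes were higher and none lower, where 6.76% of all measured genes were higher and 1.84% lower. Cyp4a14 had a ratio of 5.64 in S1 (4.35 to 7.45) and of 4.87 in S2 (4.34 to 5.47), so the intervals for the S1 and S2 ratios overlapped although its levels in S2 were far higher; with a stricter lead in the gate, 2 times as large, the S1 ratio was 10.2. In S2, 5 of 6 were higher and none lower, beside 9.07% and 2.96% of all genes, with Angptl4 at 3.25-fold (2.90 to 3.65), Pdk4 at 2.88-fold (2.51 to 3.32) and Acot1 at 1.57-fold (1.42 to 1.74). In S1 the ratios of Angptl4 (2.51, 2.24 to 2.83) and Acot1 (1.17, 1.03 to 1.32) were lower than in S2, with intervals that did not overlap, and Acot1 was not called. With median-of-ratios size factors Acot1 was not called in S2 either. S3, with its 29 cells in IR day 5, had 2 of 6 higher and none lower, beside 10.1% and 9.92% of all genes, the higher ones being Cyp4a14 (3.53-fold, 2.23 to 5.90) and Cyp4a10 (1.96-fold, 1.48 to 2.65). Across the gates and scalings tried, the S3 ratio of Cyp4a14 lay between 2.77 and 7.05 and that of Cyp4a10 between 1.51 and 3.05. The lowest value of each came with higher marker minimums. In that setting 2 genes were called higher in S3, only 1 of which was called in the main gate, and Acot1 had a ratio of 1.67.

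In injured tubule cells the Cyp4a10 ratio lay above that of all proximal tubule cells beyond the counting intervals, while the Cyp4a14 interval overlapped those of all proximal tubule cells and S1. Cyp4a14 had 152 CPM in the 158 injured cells of IR Lac.z day 5 and 20.5 CPM in the 60 of IR day 5, a ratio of 7.40 (4.94 to 11.6). Cyp4a10 had 119 and 21.3 CPM in the same groups, a ratio of 5.57 (3.73 to 8.67). In all, 5 of 6 genes were higher and none lower, beside 8.73% and 11.5% of all genes. The summed proximal tubule markers moved the same way in these cells, at 5622 CPM in IR Lac.z day 5 and 2786 CPM in IR day 5, and their part in the ratios was not tested.

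**Figure D2:**
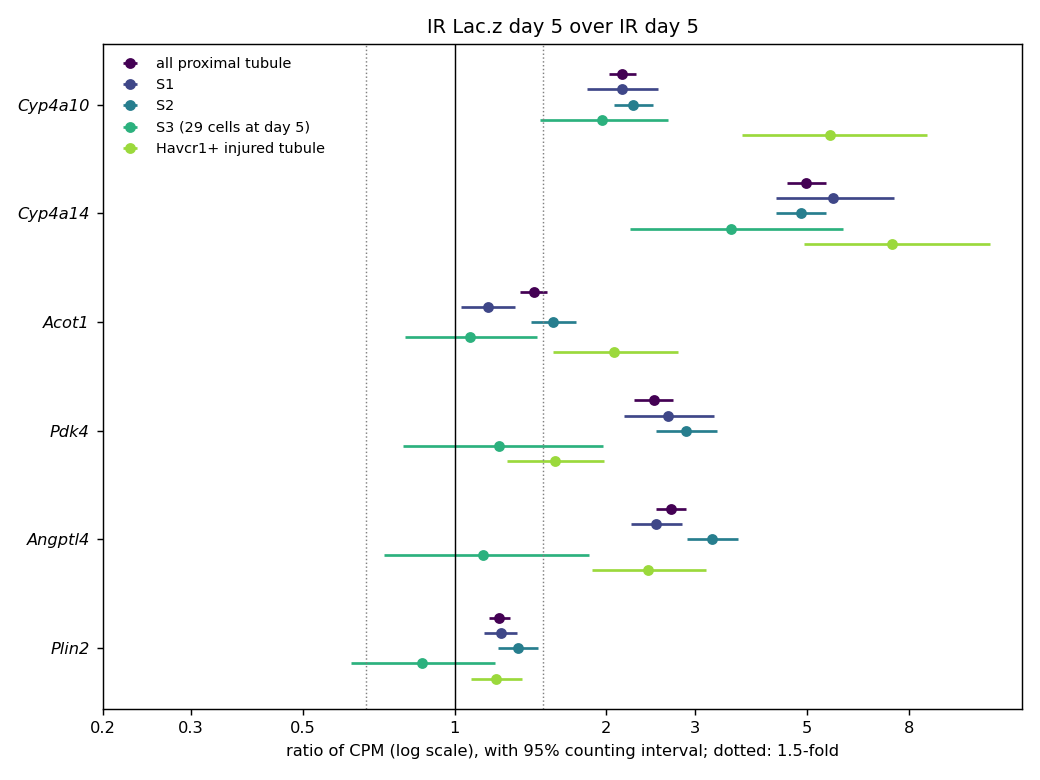
Ratio of CPM, IR Lac.z day 5 over IR day 5 (log axis), for 6 genes in all proximal tubule cells, S1, S2, S3 and Havcr1+ injured tubule, with 95% counting intervals; dotted lines mark 1.5-fold in each direction. Cyp4a14 lies between 3.53 and 7.40 in every class, and Plin2 stays below the 1.5-fold line.

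Cyp4a14 was also described as a share of cells. The gene was already known to be higher in IR Lac.z day 5 than in IR day 5. The shares use the UMIs that gave its ratio, so they are not separate evidence of a difference. Their intervals reflect the number of cells and leave out variation between mice or libraries. To remove the effect of depth, each cell was thinned to 2000 UMIs, which left out 9 of 1164 S2 cells in IR Lac.z day 5 and 4 of 370 in IR day 5. Cyp4a14 was then detected in 48.3% of S2 cells in IR Lac.z day 5 (exact 95% interval 45.4 to 51.2%), against 13.7% in IR day 5 (10.3 to 17.6%), 40.4% in IR day 14 and 28.4% in IR day 28. Without thinning the shares were 75.8% in IR Lac.z day 5, and 32.4%, 67.9% and 53.4% in IR day 5, 14 and 28, at median depths of 8426.5 UMIs in IR Lac.z day 5 and 7566, 7374.5 and 6190.5 in IR day 5, 14 and 28. In thinned macrophages the share with Cyp4a14 was 0.197% in IR Lac.z day 5, and 0.0297%, 0.755% and 0.238% in IR day 5, 14 and 28, at median depths before thinning of 11110.5 UMIs in IR Lac.z day 5 and 11538, 9179 and 5424 in IR day 5, 14 and 28. S2 cells in all 4 libraries were well above the macrophage share.

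Cells with several of the genes, counted from the same UMIs as the ratios above, were more common in IR Lac.z day 5 than in IR day 5. The share expected from the levels of the single genes was not worked out. At 2000 UMIs a cell, 16.2% of S2 cells in IR Lac.z day 5 held UMIs of 4 or more of the 7 genes, against 3.01% in IR day 5, 12.2% in IR day 14 and 5.98% in IR day 28. S2 cells with none of them made up 12.8% in IR Lac.z day 5, against 35.8%, 11.3% and 21.0% in IR day 5, 14 and 28. The 2 cytochrome genes tended to share cells: among S2 cells with a Cyp4a10 UMI, 60.7% also had Cyp4a14 in IR Lac.z day 5, against 37.1% of the S2 cells without one. The corresponding shares were 27.1% and 8.89% in IR day 5, 46.2% and 33.3% in IR day 14, and 34.1% and 24.5% in IR day 28.

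**Figure D3:**
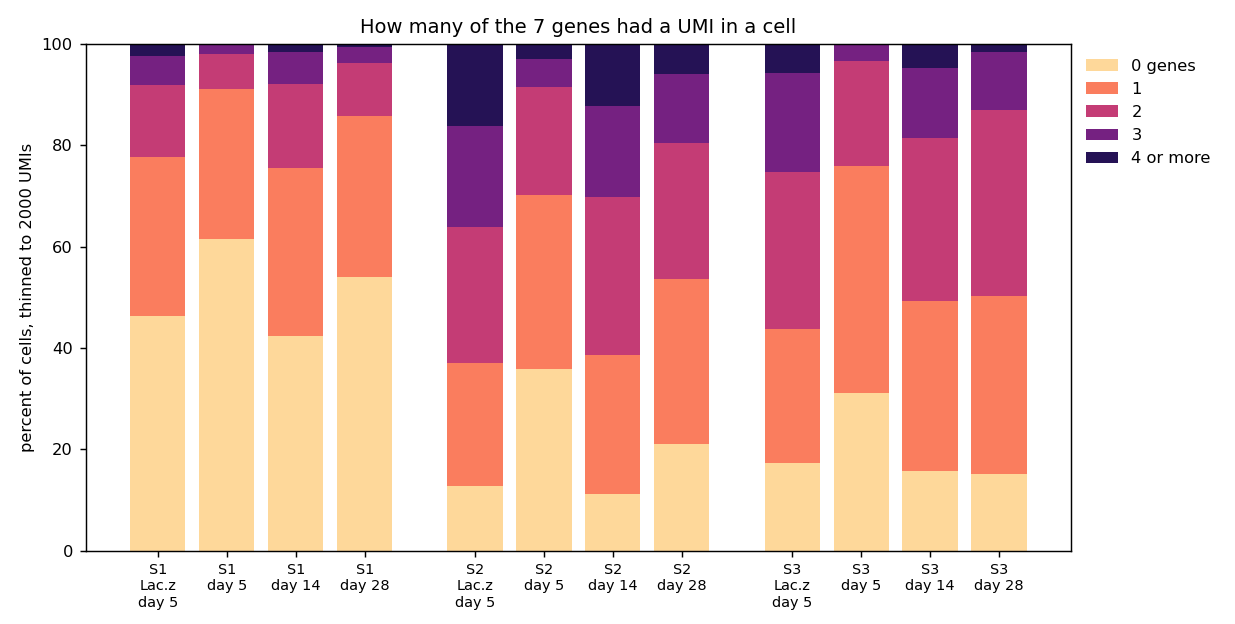
Percent of S1, S2 and S3 cells, each thinned to 2000 UMIs, in which 0, 1, 2, 3 or 4 and more of the 7 genes had a UMI, by library. In S2 the part with 4 or more is 16.2% in IR Lac.z day 5 and 3.01% in IR day 5; the S3 bar of IR day 5 rests on 29 cells.

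Over time without the probiotic, 5 of 6 genes were at least 1.5-fold higher at day 14 than at day 5 in all proximal tubule cells and none was lower, where 9.04% of all measured genes were higher and 6.73% lower. Pdk4 was 4.71-fold (4.33 to 5.14), Cyp4a14 4.24-fold (3.89 to 4.63), Angptl4 4.03-fold (3.77 to 4.31), Cyp4a10 3.18-fold (2.99 to 3.38) and Acot1 1.99-fold higher (1.87 to 2.11). With cells thinned to 2000 UMIs the Pdk4 ratio was 3.05 and the Angptl4 ratio 2.85. Cyp4a14 ranged over the settings from 3.61 (mean over cells) to 5.06 (mitochondrial limit 25%). Cyp4a10 ranged from 2.72 (S1, S2 and no-segment cells weighted equally) to 3.40 (mitochondrial limit 25%). Plin2 was 1.48-fold lower, just short of a call, and was called lower under 6 of the alternative settings. At day 28, 4 genes were higher and 1 was lower than at day 5, beside 7.09% and 8.08% of all genes: Angptl4 (3.22-fold), Cyp4a14 (2.79-fold), Cyp4a10 (2.28-fold) and Pdk4 (1.6-fold) were higher, Plin2 was 1.6-fold lower, and Acot1 had a ratio of 1.33. The Pdk4 call was lost as a mean over cells (ratio 1.03), with thinned cells (1.09), with S1, S2 and no-segment cells weighted equally (1.36) and with injured cells left in (1.48). The Angptl4 ratio was 2.42 with thinned cells. With no mitochondrial limit Plin2 was not called. These comparisons and that of IR Lac.z day 5 share the IR day 5 library, in which Cyp4a14, Cyp4a10, Pdk4, Angptl4 and Acot1 had their lowest all proximal tubule levels.

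Day 28 was also set against day 14, a comparison chosen after the data were seen, because it leaves IR day 5 out. No gene was higher and 2 were lower, beside 3.06% and 6.9% of all genes. Pdk4 had 76.4 CPM at day 28 and 226 CPM at day 14, 2.95-fold lower, and 99.1% of the measured genes had a larger ratio. Cyp4a14, at 133 CPM at day 28 and 201 CPM at day 14, was 1.52-fold lower. In S1, 4 genes were lower and none higher (3.95% and 2.48% of all genes), and in S2, 2 were lower and none higher (3.9% and 3.41%). In S3, 1 gene, Pdk4, was lower and none higher (8.26% and 3.59%), and the cytochrome genes went the other way there: Cyp4a10 had a ratio of 1.33 (1.24 to 1.42) and Cyp4a14 of 1.39 (1.20 to 1.62), against 0.70 and 0.61 in S2. The S3 gate differed between these libraries, with S2 markers at 379 CPM in the S3 cells of IR day 28 and 214 CPM in those of IR day 14, and the part of this in the S3 ratios was not tested.

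**Figure D4:**
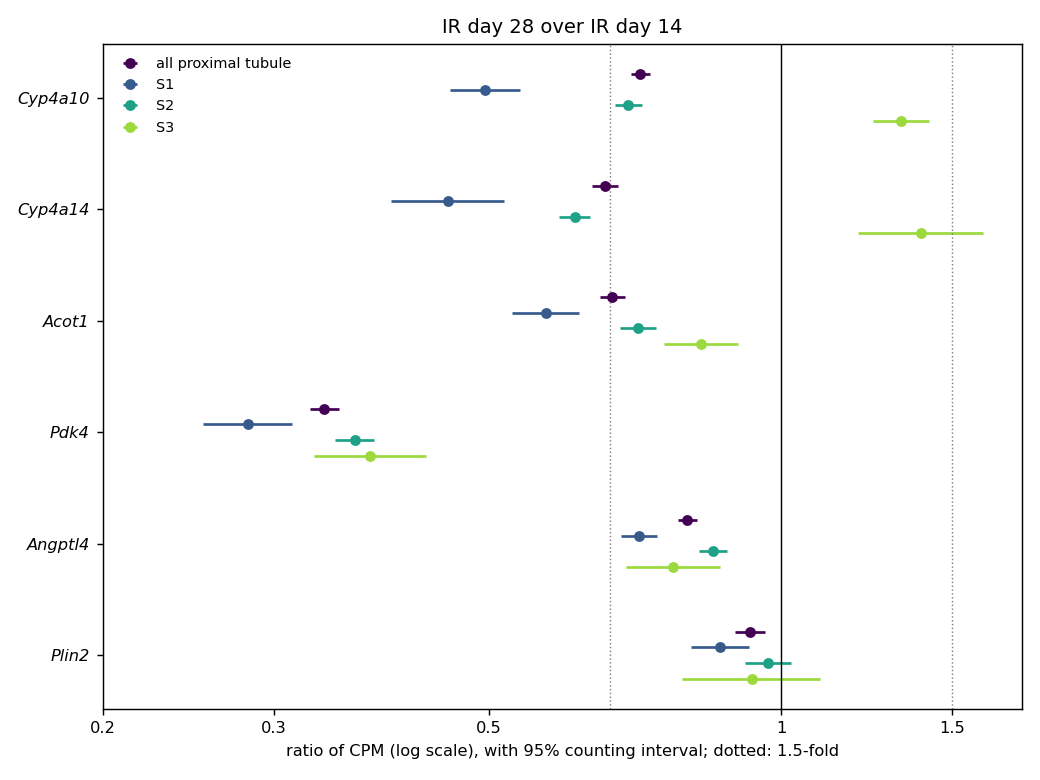
Ratio of CPM, IR day 28 over IR day 14 (log axis), for 6 genes in all proximal tubule cells, S1, S2 and S3, with 95% counting intervals; dotted lines mark 1.5-fold in each direction. Pdk4 lies between 0.28 and 0.38 in every class, while Cyp4a10 and Cyp4a14 lie above 1 in S3 and below 1 in S1 and S2.

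Part of the wider programme was also higher in IR Lac.z day 5. Of 52 other textbook PPAR-alpha targets, 45 were measured in all proximal tubule cells, and 11 were higher and 1 lower in IR Lac.z day 5 than in IR day 5, beside 6.31% and 2.82% of all measured genes, with a median log2 ratio of 0.14 against 0.06 over all genes. Plin5, another lipid droplet coat protein, was 2.26-fold higher (4.32 and 1.91 CPM), and Slc25a20, which carries acylcarnitines into mitochondria, was 1.98-fold higher (89.0 and 45.0 CPM). The near copies Cyp4a31 (1.77-fold), Acot2 (1.67-fold) and Acot3 (1.95-fold) were among the higher genes, and Cyp4a12a, a male-biased omega-hydroxylase, was 1.59-fold lower (17.6 and 27.9 CPM). In injured tubule cells 17 of 40 measured targets were higher and none was lower, beside 8.73% and 11.5% of all genes, in the cells whose proximal tubule markers were also higher.

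In each comparison over time 45 of the listed targets were measured. At day 14, 13 were higher and 2 lower than at day 5, beside 9.04% and 6.73% of all genes. At day 28, 9 were higher and 2 lower than at day 5, beside 7.09% and 8.08%. Day 28 had 1 higher and 5 lower than day 14, beside 3.06% and 6.9%.

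The receptor gene itself did not reach 1.5-fold in any comparison of all proximal tubule cells. Ppara had 64.7 CPM in all proximal tubule cells of IR Lac.z day 5, and 48.2, 42.7 and 49.8 CPM in IR day 5, 14 and 28, with a ratio of 1.34 (1.22 to 1.48) between the day 5 libraries. In macrophages it did not exceed 0.259 CPM. Of 13 measured receptors, partners and coregulators, 1 was higher in IR Lac.z day 5 than in IR day 5 and none lower, a share near the 6.31% of all genes called higher: Lpin1, a coactivator and phosphatidate phosphatase, at 1.51-fold (1.37 to 1.66). Ppard, the related delta receptor, had 4.14 CPM in IR Lac.z day 5, and 5.64, 8.4 and 24.5 CPM in IR day 5, 14 and 28.

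Relatives of the 7 genes were read against the same 6.31% of all genes higher and 2.82% lower in all proximal tubule cells. In the Cyp4 family, 4 of 9 measured genes were higher in IR Lac.z day 5 and 1 was lower. These 4 include Cyp4a14 and Cyp4a10, already known to be higher in this contrast, and Cyp4a31, a near copy of Cyp4a10. The fourth was Cyp4f18 (1.99-fold, 0.98 to 4.6, from 53 UMIs in IR Lac.z day 5 and 9 in IR day 5). Among acyl-CoA thioesterases 3 of 11 were higher and none lower, Acot6 (1.55-fold) joining Acot2 and Acot3. Pdk4 was the only 1 of 10 genes of pyruvate dehydrogenase, its kinases and phosphatases to reach 1.5-fold. Of 13 lipid droplet genes, Plin5 and Fitm2, a droplet-forming protein of the endoplasmic reticulum (1.6-fold), were higher, and no partner of Angptl4 and Fgf21 among 8 measured was called.

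Genes of other programmes were also called between the day 5 libraries, where 6.31% of all genes were higher and 2.82% lower. In the glucocorticoid and fasting list, 5 of 11 measured genes were higher in IR Lac.z day 5 than in IR day 5 and 1 was lower, with Zbtb16 at 4.31-fold, Sgk1 at 2.63-fold and Per1 at 2.39-fold, and Mt2 2.29-fold lower. All 10 interferon genes were higher, Rsad2 at 19.9-fold, Usp18 at 16.3-fold and Xaf1 at 12.1-fold, and the list summed to 320 CPM in IR Lac.z day 5, against 49.2, 36.9 and 56.9 CPM in IR day 5, 14 and 28. In the hypoxia list 2 of 14 were higher (Adm at 2.11-fold and Ankrd37 at 1.81-fold) and none lower. The integrated stress list had 3 of 8 higher and 1 lower, with Gdf15 at 1.76-fold, Ddit3 at 1.70-fold, Atf3 at 1.5-fold and Asns 1.97-fold lower. Of 16 genes that mark RNA quality and dissociation, 5 were higher and none lower, led by Hspa1b (2.08-fold), Jun (1.99-fold) and Hspa1a (1.87-fold). The list, with 8 mitochondrial genes, summed to 254260 CPM in IR Lac.z day 5 and 251608, 203029 and 219497 CPM in IR day 5, 14 and 28. The part of these programmes in the levels of the 7 genes was not tested.

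**Figure D5:**
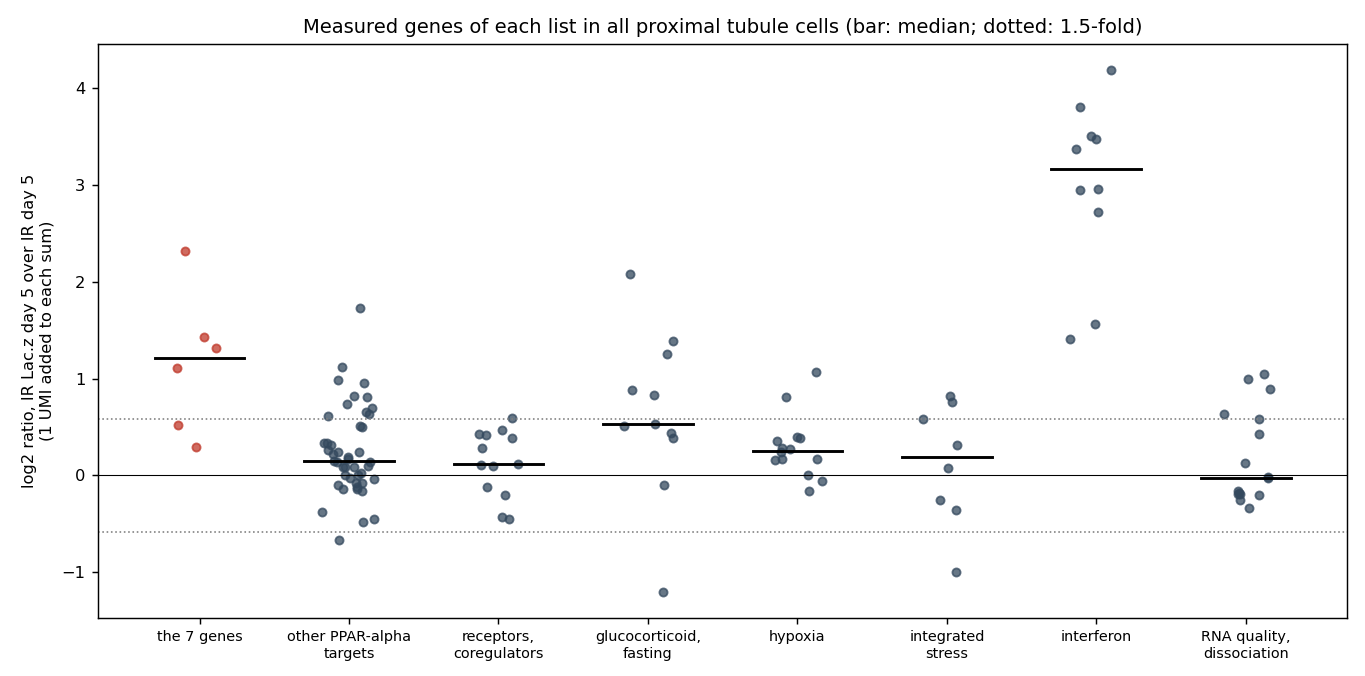
Log2 ratio, IR Lac.z day 5 over IR day 5, of every measured gene of 8 lists in all proximal tubule cells, with 1 UMI added to each sum; bars mark medians and dotted lines 1.5-fold. The 6 measured genes of the 7 (red) have a median of 1.21, the 45 other targets of 0.14 and the 10 interferon genes of 3.17.

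Across 28 sums of tubule segment by library with at least 50 cells, the genes with the pattern most like each of the 7 were taken by Pearson correlation of log2(CPM + 1) among 5807 genes. The sums share libraries and span proximal and distal segments of different depth, and the values are given as a description. Rdh16f2 was closest to Cyp4a10 (r = 0.98), before Adtrp and Ugt3a1, and also to Cyp4a14 (r = 0.97), before Cyp4a10 itself (r = 0.96) and Pxmp4. For Acot1 the closest were Slc27a2 (r = 0.98), Dglucy and Slc22a2, and for Angptl4 Osgin1 (r = 0.96), Aadac and Polr3e. Plin2 was closest to Ctsz (r = 0.96), Dusp22 and Fut8. Pdk4 had no such close match over these 28 sums, with Herc3 at r = 0.84 before Sqle and Cyr61. In the proximal tubule sums alone its closest match had r = 0.93. Within the 15 proximal tubule sums alone, Cyp4a10 correlated with Acot1 (r = 0.97), Pdk4 (r = 0.86) and Cyp4a14 (r = 0.86). Angptl4 had lower values there, with r = 0.48 for Cyp4a10, 0.52 for Cyp4a14, 0.40 for Acot1 and 0.64 for Pdk4. For Plin2, r with the other 5 genes lay between -0.34 and 0.22.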

How the data were processed

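Mouse kidney libraries, 4 in all and 1 per group, were read from deposited UMI count matrices, raw counts per gene and barcode that the authors made with the mm10 build, per the submitters' processing notes; aligner and annotation: not given in the sources used here. Barcodes under 200 genes or over 50% mitochondrial UMIs were left out. The barcodes with the highest Scrublet scores (scanpy 1.11.5) were removed as doublets at 0.8% per 1000 deposited barcodes, since Scrublet's own threshold called 1, 161, 63 and 2. Cells were gated on raw marker UMIs: the leading class needed 6 UMIs and 3 times the next, a segment 4 UMIs and 1.5 times the next. UMIs were summed per class and library and scaled to CPM. Ratios carry exact conditional binomial and levels exact Poisson 95% intervals, and shares of cells exact Clopper-Pearson ones; all cover counting error only. The ratio, interval and calling steps were tested on simulated data. The 7 genes, the lists and the markers were chosen with earlier results of these data known. Named genes are the 7, the 3 highest and 3 lowest called of each list (IR Lac.z day 5 over IR day 5, all proximal tubule cells), and the 3 genes most like each of the 7; Ppara, Ppard and Cyp4a31 were named in addition after their values were seen, and some results under this rule are not reported here. Alternatives covered gate, filters, scaling, thinning and thresholds.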

Additional observations from a re-analysis of the deposited data

Results flagged for a closer look

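Day 28 over day 14, Cyp4a10 and Cyp4a14 pointed in opposite directions in different proximal tubule segments. The Cyp4a10 ratio was 1.33 in S3 (95% counting interval 1.24 to 1.42), against 0.495 in S1 (0.456 to 0.538) and 0.696 in S2 (0.674 to 0.718). For Cyp4a14 the ratio was 1.39 in S3 (1.20 to 1.62), against 0.454 in S1 (0.396 to 0.518) and 0.613 in S2 (0.591 to 0.636). With 1 library per time the difference between segments was not tested, and the comparison was chosen after the data were seen. The S3 ratios stayed above 1 under all settings tried for them, from 1.31 to 1.42 for Cyp4a10 and from 1.13 to 1.48 for Cyp4a14. The value of 1.13 came with cells thinned to 2000 UMIs and lies below the main interval of Cyp4a14. Neither gene reached 1.5-fold in S3.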

How the results depend on the processing

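No paired analysis was possible because each group has 1 library, and no replicate could be left out. Of 15 settings tried, 14 were planned; weighting S1, S2 and no-segment cells equally was added after seeing the data. Among member ratios 587 of 684 moved by less than their counting interval, 97 moved and none reversed a call; 268 of 288 counts stayed within 1.5 times. In all proximal tubule cells the IR Lac.z day 5 over IR day 5 ratios ranged from 4.75 to 5.56 for Cyp4a14, 2.05 to 2.26 for Cyp4a10, 2.33 to 2.79 for Pdk4 and 2.57 to 3.02 for Angptl4. The S1 ratio of Cyp4a14 was 10.2 with the larger lead, 2 times that of the main gate. In S3, which rests on 29 cells in IR day 5, Pdk4 ranged from 0.590 to 3.00 and Plin2 from 0.326 to 1.16. In all proximal tubule cells the day 14 over day 5 ratios ranged from 2.85 to 4.33 for Angptl4 and 3.61 to 5.06 for Cyp4a14. Cyp4a10 ranged there from 2.72 to 3.40 and Acot1 from 1.77 to 2.14. For day 28 over day 5 the ranges were 2.42 to 3.45 for Angptl4, 2.30 to 3.44 for Cyp4a14 and 1.84 to 2.48 for Cyp4a10. Pdk4 ranged from 3.05 to 5.15 for day 14 over day 5 and from 1.03 to 1.73 for day 28 over day 5, where 3 genes in place of 4 were higher as a mean over cells, thinned, with equal weights, with injured cells left in or at 2-fold.

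The count of genes lower at day 14 than at day 5 was 1 (Plin2) under a 25% mitochondrial limit, with injured cells left in, scaling without mitochondrial and haemoglobin UMIs, median-of-ratios size factors, mean over cells or thinning. Measured at 1 UMI the count was also 1, Fgf21, with 1 UMI at day 14 and 0 at day 5: that call comes from the UMI added to each sum and is no lower level. For IR Lac.z day 5 over IR day 5 in S3, 1 gene (Plin2) was lower with higher marker minimums or the larger lead, and 1 (Cyp4a14) was higher at 2-fold. Lower at day 28 than at day 5 were 0 genes with no mitochondrial limit or at 2-fold. Lower at day 28 than at day 14 was 1 gene (Pdk4) with the 25% limit, injured cells left in, scaling without mitochondrial and haemoglobin UMIs or 2-fold, and 1 (Pdk4) in S2 at 2-fold. In S3, 3 genes (Pdk4, Angptl4 and Plin2) were lower after thinning. Higher at day 28 than at day 14 was 1 gene (Fgf21) in all proximal tubule cells and 1 in S2 when measured at 1 UMI. The cause of these shifts was not tested.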
